A study of Arabidopsis thaliana with 8 samples.

Results

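AT3G21670 (NPF6.4, a nitrate transporter gene of the NRT1/PTR family) is followed here through the day in rosettes of a starchless Arabidopsis mutant. It is 1 of 13350 genes that have a named probe set, and 1 probe set on the array reads it. The gene was selected on its measured fall between the arrays of 04h and 08h, so every value that uses these arrays is a description and carries no test. Arrays of the other hours were not used in the choice, and tests of the gene are confined to them.

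All 8 arrays come from pgm plants in the Col-0 background, whose leaves lack the plastidial phosphoglucomutase needed to make starch. Whole rosettes 5 to 6 weeks old were frozen in the growth chamber, and 15 rosettes were pooled for each extract. Harvests are labelled at 6 hours: 00h and 12h were hybridised on arrays lettered A and B, while 04h, 08h, 16h and 20h have a single array lettered A. Light and dark periods are not stated in the labels, and neither is the origin of A and B, so p-values describe the scatter of arrays that may be technical repeats. Wild-type plants and the level of PGM1, the mutated gene, are not analysed here.

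NPF proteins are membrane transporters that move solutes together with protons, and the family takes its name from nitrate and peptide transport. Its members carry a wide range of substrates, among them nitrate, peptides, glucosinolates and plant hormones. Plants take up nitrate, store much of it in the vacuoles of leaf cells and reduce it in leaves with the help of light and sugars. In wild-type leaves many genes of nitrate transport and assimilation follow the daily cycle and respond to nitrate, sugar and light.

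The intensity of NPF6.4, on the linear scale as deposited, was high at 00h and 04h and low from 08h to 16h. It was 861.7 and 541.2 on the 2 arrays of 00h and 715.2 at 04h. It was 119.7 at 08h, 182.7 and 219.7 on the 2 arrays of 12h, and 137 at 16h. At 20h it was 328.2, between the low and the high hours. The highest hour lay 5.97-fold above the lowest, a span of 2.43 log2 units between hour means on the scale log2(intensity + 16) that is used for all differences below.

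**Figure D1:**
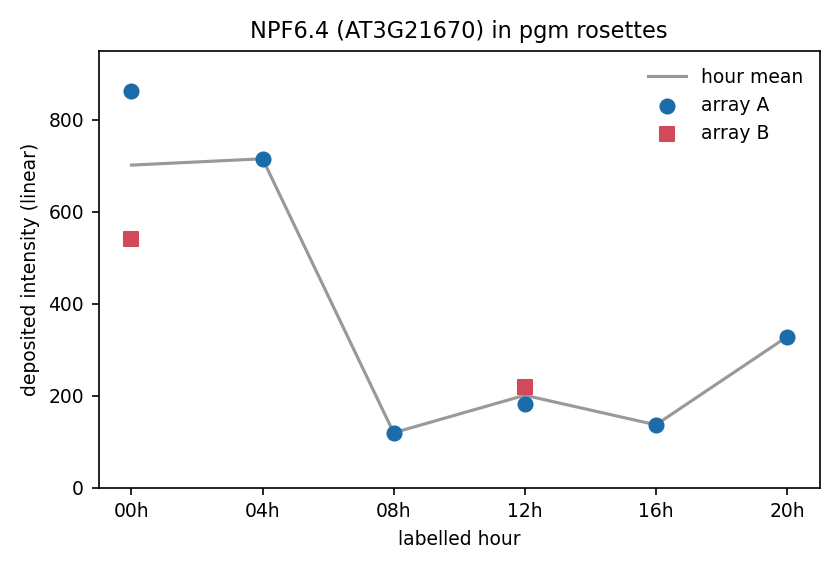
Deposited intensity of NPF6.4 (linear axis from 0) on each of the 8 arrays by labelled hour, with array A as circles, array B as squares and a line through the hour means. The 04h array, at 715.2, lies between the 2 arrays of 00h, and the arrays of 08h, 12h and 16h all lie under 220.

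Ordered by mean, 08h was lowest, followed by 16h, 12h and 20h, while 00h and then 04h were highest. The SD between arrays of 1 hour, pooled over 00h and 12h, was 0.35 log2 units for this gene. Neighbours at either end of the order did not differ beyond it. The array of 08h was lower than that of 16h by a log2 difference of -0.17, and the array of 04h was 0.06 above the mean of 00h and inside the range of its 2 arrays. The gap between 12h and 20h was wider, with 20h higher by 0.67.

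Between 12h and 00h, on arrays that the choice of the gene did not use, NPF6.4 fell. It averaged 201 ± 26.2 in the 12h arrays and 701 ± 227 in the 00h arrays (SD, n = 2 each), a 3.49-fold lower mean. Both 12h arrays lay below both 00h arrays. The log2 difference was -1.69 ± 0.25 (SE, limma adjusted p = 5.0e-04). This SE also draws on the spread of the other tested probe sets, while the gene's own SD between arrays was 0.35 log2 units. Changes between 12h and 00h were common in these rosettes, where 40.5% of the 13647 tested probe sets passed in either direction and 18.6% passed as lower, so a call in this comparison does not by itself set the gene apart. The split was 2992 probe sets higher and 2536 lower, against 2348 higher and 3205 lower when each array was scaled to 1 median instead.

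The size of this fall differed between the array letters. It was -2.14 between the A arrays and -1.24 between the B arrays. The 12h A and 00h A arrays also carried the brightest spiked hybridisation controls, with 8882.3 and 8211.7 for the 3' probe set of cre against 2173.3 to 2925.4 on the other 6 arrays. The signal of 25S ribosomal RNA was also highest on them, with 869.3 on 12h A and 2995.5 on 00h A, against 65.8 to 496.9 elsewhere, and 00h A is the array with the highest NPF6.4 value. The part of these differences in the fall was not tested. NPF6.4 was brighter on array A than on array B at 00h but dimmer on A than on B at 12h. Over the other 6 arrays the 12h minus 00h difference was -1.24, with no residual degrees of freedom for a test.

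None of the 3 later steps passed the test for NPF6.4. From 12h to 16h the log2 difference was -0.50 ± 0.31 (SE, limma adjusted p = 0.353), in a step where 11.2% of probe sets passed. From 16h to 20h the intensity was 328.2 at 20h, against 137 at 16h, a log2 difference of 1.17 ± 0.36 (limma adjusted p = 0.597). From 20h to 00h it averaged 701 ± 227 (SD, n = 2 arrays) at 00h, against 328.2 on the 1 array of 20h, a difference of 1.02 ± 0.31 (limma adjusted p = 0.578). The unadjusted p-values of these last 2 steps were 0.00832 and 0.00788, but very few probe sets passed there, 0.00733% at 20h (against 16h) and 0.139% at 00h (against 20h). Only 1.19% and 1.25% of tested probe sets had a larger absolute difference in the same step. Leaving out the 00h B array gave a difference of 1.35 for the last step, and leaving out 00h A gave 0.69.

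The steps that involve 04h or 08h are given as values only. The intensity was 119.7 at 08h, against 715.2 at 04h, a log2 difference of -2.43 and the 13th lowest of the 13647 probe sets in that step. From 00h to 04h the difference was 0.06, and 92.5% of probe sets moved further. From 08h to 12h it was 0.67, and 6.56% moved further. The size and rank of the drop at 08h restate the choice of the gene, which also favours a high value at 04h. Of all probe sets, 1.03% passed at 08h (against 04h) and 27% at 04h (against 00h). These shares count calls, so the untested differences of NPF6.4 cannot be set against them.

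**Figure D2:**
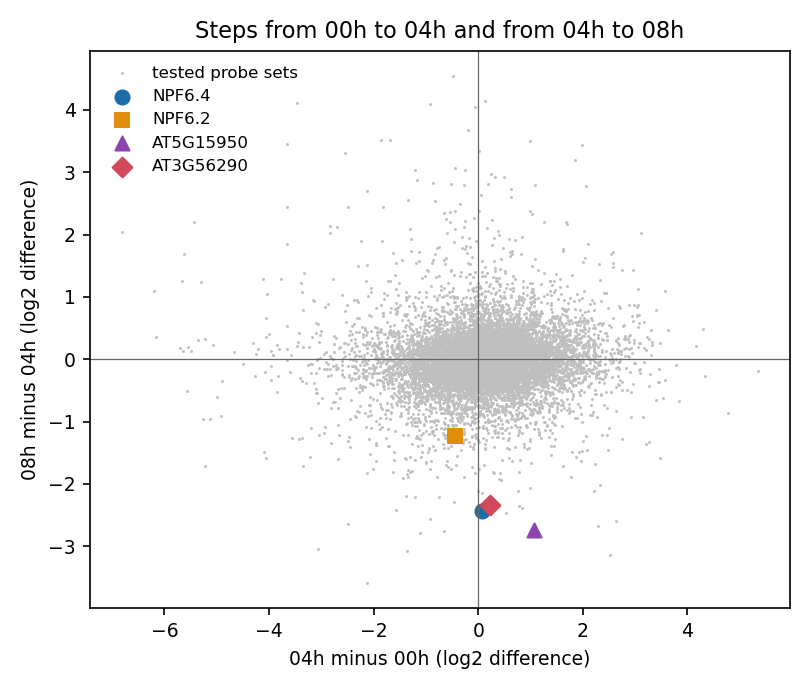
Each grey point is 1 of 13647 tested probe sets, with its log2 difference from 00h to 04h on the horizontal axis and from 04h to 08h on the vertical axis. NPF6.4 lies at 0.06 and -2.43, next to AT3G56290, while NPF6.2 lies at -0.45 and -1.24 and AT5G15950 at 1.07 and -2.73.

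The timing can be put against other genes that were low at 12h. Among 1594 probe sets that passed as lower at 12h than at 00h by more than 1 log2 unit, the median had 79.7% of that difference in place at 04h, with quartiles of 58.3% and 101%. NPF6.4 had -3.80%, and 45 of the 1594 (2.82%) had the same share or less. Its share depended on the 00h arrays, with 13.0% without 00h B, where 93 probe sets (5.87%) had the same share or less, and -28.7% without 00h A, where 15 (0.852%) did. Scaling to 1 median gave 12.4%, with 61 probe sets (2.96%). Over all 13 alternatives, chosen for this share after the data were seen, it lay between -28.7% and 13.0%, against medians of 75.7% to 86.7%. These shares use the 04h array, and NPF6.4 was chosen for its fall from that array to the next hour. That choice favours a low share, so the shares and the rank of NPF6.4 are a description and no separate result.

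A cosine curve with a period of 24 h, fitted to all 8 arrays, had an amplitude of 1.07 log2 units from mid-level to peak and a peak at 0.95 h for NPF6.4, and accounted for 74.2% of its variance. Such a smooth curve does not follow the drop between the single arrays of 04h and 08h, on which the gene was chosen. The course from 00h to 04h is not resolved, since 04h lay inside the range of the 2 arrays of 00h. The labelled hours cover a single day, so whether the course recurs was not tested.

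The NPF6 subfamily, to which the gene belongs, offered 1 close match. NPF6.2 (AT2G26690) is known as NRT1.4, a low-affinity nitrate transporter of the leaf petiole. It had 509 and 485.3 on the 2 arrays of 00h, 360.8 at 04h, 143.5 at 08h, 208.1 and 156.2 on the 2 arrays of 12h, 184.2 at 16h and 226 at 20h. As in NPF6.4, the 3 arrays of 00h and 04h stood above all the others, and 08h was the lowest. NPF6.2 averaged 182 ± 36.7 in the 12h arrays and 497 ± 16.8 in the 00h arrays (SD, n = 2 each), and its log2 difference was -1.38 ± 0.22 (SE, limma adjusted p = 6.62e-04).

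The courses of both genes were not identical. NPF6.2 had 32.1% of its 12h difference in place at 04h, against -3.80% for NPF6.4. From 04h to 08h its log2 difference was -1.24 (limma adjusted p = 0.125), against -2.43 for NPF6.4. From 16h to 20h NPF6.2 moved by 0.27, against 1.17 for NPF6.4. Whether the 2 genes differed in any of these steps was not tested.

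The other subfamily members add little. AT5G13400, which the list used here places in the same subfamily, had 51.5 and 22.1 on the 2 arrays of 00h and 89.6, its highest value, at 04h. Its values then ran from 56.1 at 08h, through 63.2 and 43.9 on the 2 arrays of 12h, to 27.6 at 16h and 32.3 at 20h, and it passed in none of the comparisons. Its 2 arrays of 00h differed by more than most of its steps. The fourth member, NPF6.3 (AT1G12110), known as the dual-affinity transporter and nitrate sensor CHL1, is not analysed here.

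**Figure D3:**
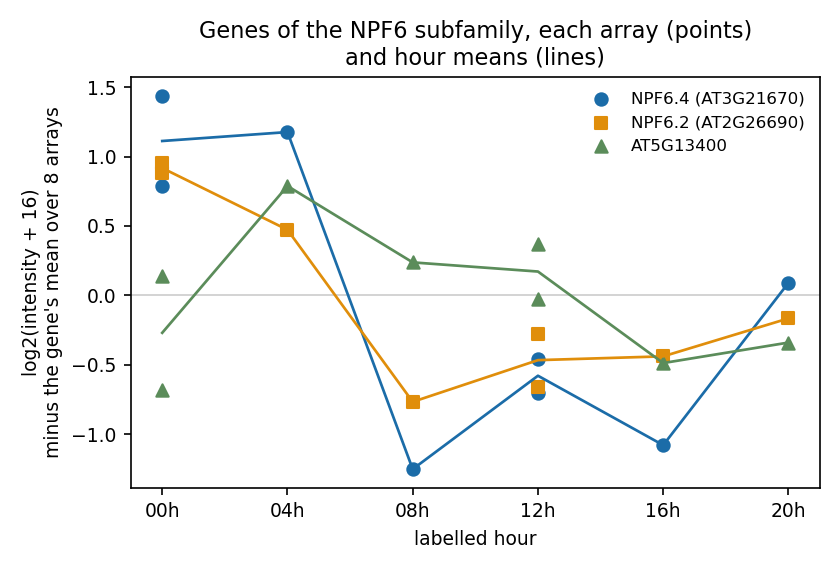
Log2(intensity + 16) of 3 NPF6 genes on each array (points) and as hour means (lines), relative to each gene's own mean over the 8 arrays, by labelled hour. NPF6.4 and NPF6.2 are highest at 00h and 04h and lowest at 08h, while AT5G13400 is highest at 04h and its 2 arrays of 00h lie far apart.

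The other NRT1/PTR family members could be followed only in part. Of 53 listed genes 34 have a named probe set, and 17, NPF6.4 among them, passed the filter on dim probe sets. The other 17 had intensities between 0.2 and 31.3 on all arrays. Of the 16 tested genes besides NPF6.4, 7 were higher and 2 lower at 12h than at 00h, where 21.9% of all probe sets passed as higher and 18.6% as lower. Their median log2 difference was 0.44, against 0.06 over all tested probe sets. The 2 lower genes were NPF6.2 and AT3G53960, which had 53.8 and 47.3 at 12h, against 103.9 and 136 at 00h.

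The higher genes included transporters known for other substrates. NPF2.10, known as the glucosinolate transporter GTR1, had 250.8 and 317.1 at 12h, against 94.5 and 87.5 at 00h, and rose by 1.48 ± 0.22 log2 units (SE, limma adjusted p = 4.52e-04). Its partner in loading glucosinolates into the phloem, NPF2.11 (GTR2), had 390.1 and 232.9 at 12h, against 138.8 and 199 at 00h. This gene rose by 0.80, a call that ended without 00h A (0.56) and without 12h A (0.45). NPF3.1, known to transport gibberellin, had 527.8 and 440.9 at 12h, against 176.8 and 194.7 at 00h, a rise of 1.31 ± 0.21. NPF4.3 rose by 1.15 ± 0.23, with 75.1 and 82.1 at 12h and 31.2 and 22.5 at 00h. NPF4.4, AT2G40460 and AT1G22540 rose by between 0.69 and 0.88, and only the call of NPF4.4 held with any 1 array left out. That of AT2G40460 ended without 00h A, 00h B or 12h B, at 0.53 to 0.83. That of AT1G22540 ended without any 1 of the 4 arrays, at 0.65 to 0.73. With all 8 arrays kept, the calls of NPF2.11, AT2G40460 and AT1G22540 also ended without the filter on dim probe sets. They ended with scaling to 1 median as well.

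The correlation with NPF6.4 over the 8 arrays, on the log2 scale, was 0.92 for NPF6.2 and 0.58 for the next family member, AT2G37900. It was below 0 for 11 of the 16 genes, down to -0.73 for AT1G22540. The arrays share their scaling, and NPF6.4 was chosen on 2 of them, so these values are a description.

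**Figure D4:**
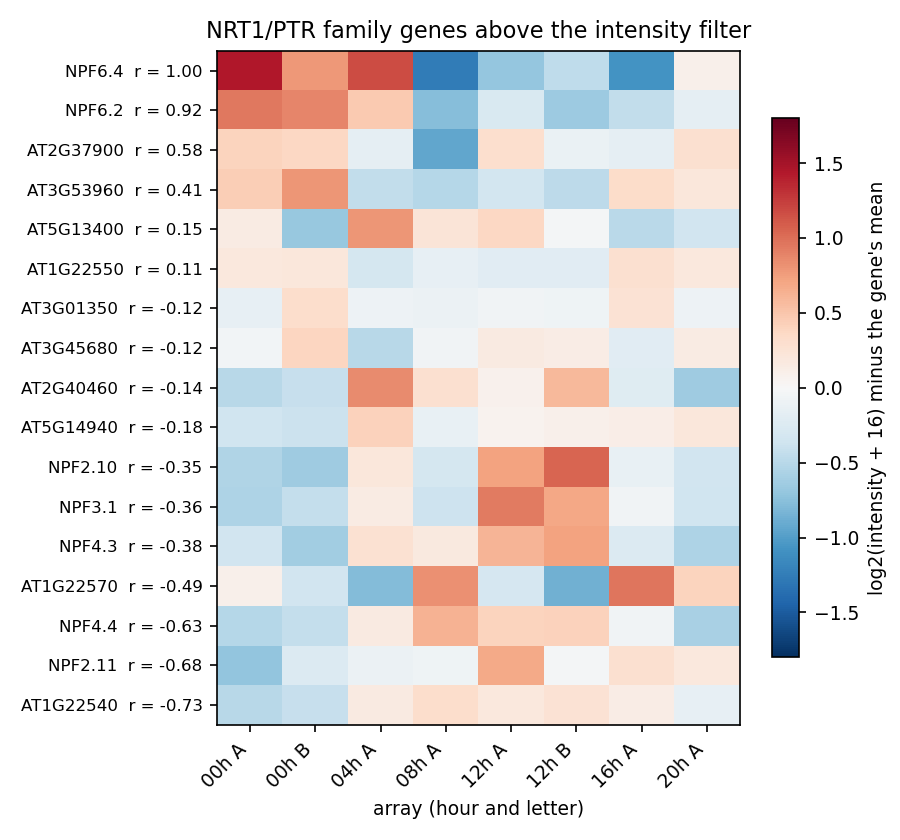
Colour gives log2(intensity + 16) of each of 17 NRT1/PTR family genes on each array relative to the gene's own mean, with genes ordered down the page by their correlation r with NPF6.4. NPF6.4 and NPF6.2 have their highest values on the arrays of 00h and 04h, while NPF2.10, NPF3.1 and NPF4.3 have theirs at 12h and lie more weakly above their means at 04h.

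The steps between hours had fewer calls among family members. From 00h to 04h AT2G40460 (1.3 log2 units) and NPF2.10 (0.80) were higher and AT3G53960 (-1.07) lower at 04h, 3 of the 16 in a step where 27% of all probe sets passed. The call of NPF2.10 ended under 8 of 13 alternatives, with values of 0.53 to 0.90 among them, and that of AT3G53960 without 00h B, at -0.89. Without the filter on dim probe sets the calls of all 3 ended. Among 16 members, 0 passed by limma's adjusted p between 04h and 08h, where 1.03% of all probe sets passed, and 3 had an unadjusted p under 0.05. Between 08h and 12h, where 0.0879% of all probe sets passed, 0 of the 16 did and 4 had an unadjusted p under 0.05. Between 12h and 16h, where 11.2% of all probe sets passed, AT1G22570 rose by 1.54 log2 units, with 143.8 at 16h, against 50.7 and 29 at 12h. NPF2.10 fell in the same step by 1.02, a call that ended without 12h B (-0.86), and the median of the 16 members was -0.17. Both calls of this step ended without the filter on dim probe sets.

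Other genes of nitrate use were covered thinly. Of the 126 genes listed besides NPF6.4 for nitrate and ammonium transport, assimilation, signalling and the supply of reductant, a named probe set exists for 40 and the filter left 21. Of these 21, 8 were higher and 2 lower at 12h than at 00h, 47.6% against the 40.5% of all probe sets that passed, and the median log2 difference was 0.30, against 0.06 over all. Of 4 signalling genes with a probe set 3 were tested. Between 12h and 00h 0 of them passed by limma's adjusted p and 2 had an unadjusted p under 0.05. The same unadjusted threshold was met by 6702 of all 13647 tested probe sets. AT1G25550 was lower at 04h than at 00h, with 148.6 at 04h, against 370.7 and 320.7 at 00h (log2 difference -1.13, limma adjusted p = 0.0167). This call ended without the filter on dim probe sets (limma adjusted p = 0.0696).

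AT5G41670, listed for reductant supply, took a course unlike that of NPF6.4. It had 445.6 at 04h and 478.5 at 08h, where NPF6.4 dropped, and 287.2 and 344.1 at 12h, against 53.2 and 78.4 at 00h. Its log2 difference between 12h and 00h was 2.03 ± 0.23 (SE, limma adjusted p = 9.46e-05). AT1G64190 of the same list did not pass, with a difference of 0.30. The enzymes of nitrate reduction, the NRT2 transporters other than NRT2.5, and the ammonium transporters could not be followed, since the probe sets used here name none of them. NRT2.5, a transporter known from nitrogen-starved roots, had 8.8 to 19.8 on all arrays and lay below the filter.

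Polyamine genes were listed because NPF6.4 is known in Arabidopsis from a mutant with altered polyamine resistance. AT5G15950, an S-adenosylmethionine decarboxylase gene of polyamine synthesis, had itself been noted in these data for its fall from 04h to 08h, so its likeness to NPF6.4 in that step is no separate result. It had 270.7 and 266.9 on the 2 arrays of 00h, 580.7 at 04h, 73.7 at 08h, 126.9 and 119.4 on the 2 arrays of 12h, 41.6 at 16h and 124.3 at 20h. Unlike NPF6.4, it was higher at 04h than on both arrays of 00h, by 1.07 log2 units. Its paralogue SAMDC (AT3G02470) had 2392.2 and 2020.1 at 12h, against 5929.1 and 3500.5 at 00h. The difference of SAMDC, -1.05 (limma adjusted p = 0.0469), no longer passed without 00h A (-0.67), 12h A (-1.17) or 12h B (-0.92). With all 8 arrays kept, it also did not pass without the filter on dim probe sets or with the lowest 60% left out. The same held with 64 instead of 16 added to the intensities. AT3G25570, the third tested gene of the list, went the other way, with 65.1 and 41.6 at 12h, against 23.6 and 20.6 at 00h. This rise of 0.84 (limma adjusted p = 0.0213) did not pass without 00h B (0.79) or 12h A (0.60). Nor did it pass without the filter on dim probe sets.

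Among all tested probe sets with 1 gene and hour means that span at least 1 log2 unit, 2933 in number, AT3G56290 had the course most like that of NPF6.4, with a correlation of 0.98 over the 8 arrays. It had 386.6 and 368.8 on the 2 arrays of 00h, 445.9 at 04h, 74.8 at 08h, 120 and 135.4 on the 2 arrays of 12h, 98.3 at 16h and 235.7 at 20h. By hour means every turn of its course matched that of NPF6.4, including the small rise at 12h between lower values at 08h and 16h. For AT3G56290 the share of its 12h difference in place at 04h was -15.9%.

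The other 9 of the 10 most alike genes were AT5G54130, AOR, AT5G42760, AT3G21390, AT4G00955, AT2G41120, NPF6.2, AT5G19850 and AT1G44000, with correlations between 0.91 and 0.96. AOR, an alkenal/one oxidoreductase gene, was bright throughout, with 1339.5 at 04h, 557 at 08h and 517.3 at 16h, and its hour means spanned 1.35 log2 units. AT5G54130 spanned 2.69 units, more than NPF6.4. It was already lower at 04h, with 202.9, against 409.2 and 323.9 at 00h. All of these values were chosen by their likeness, and no test is given for them, apart from those of NPF6.2 above as a subfamily member.

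The reverse course was found too. The 5 most opposite genes were AT5G48960, AT2G37470, AT1G04990, PORB and AT5G14550, with correlations between -0.94 and -0.93. PORB, a protochlorophyllide oxidoreductase gene of chlorophyll synthesis, had 463.7 and 501.3 on the 2 arrays of 00h, 373.6 at 04h and 2183.4 at 08h, and then 1491 and 1405.4 on the 2 arrays of 12h, 1082.2 at 16h and 962.8 at 20h. It was thus low on the 3 arrays where NPF6.4 was high.

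**Figure D5:**
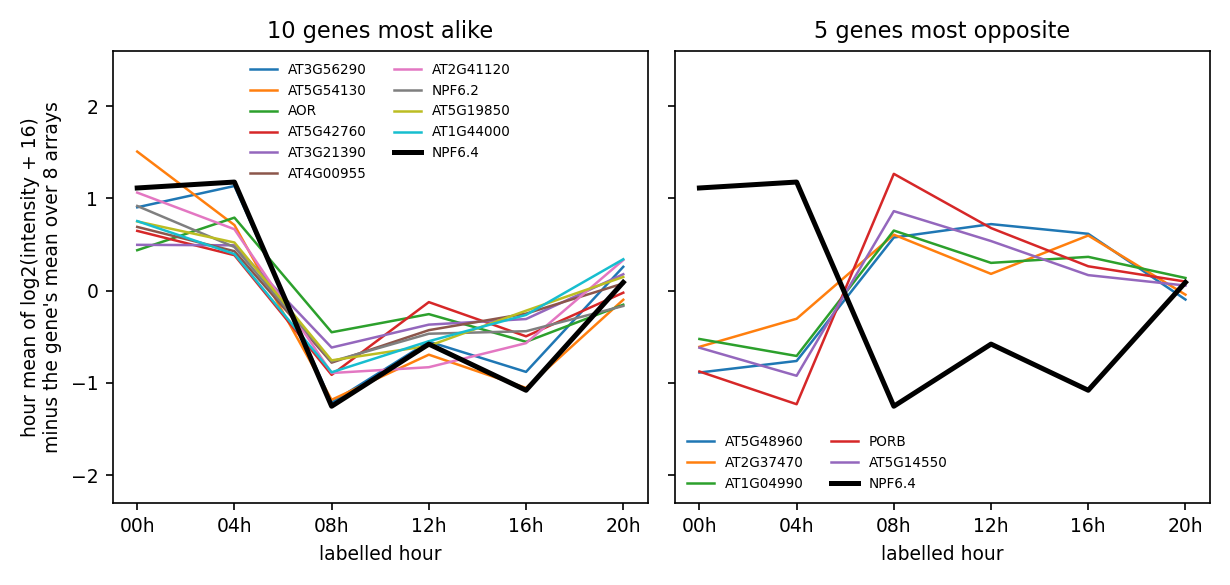
Hour means of log2(intensity + 16), relative to each gene's own mean over the 8 arrays, for NPF6.4 (black) with the 10 most alike genes on the left and the 5 most opposite genes on the right. In all 10 alike genes 00h and 04h are the 2 highest hours, and 08h is the lowest except in AOR, where 16h is.

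A stricter description, set after the values were seen, asked for an intensity at 00h A, 00h B and 04h that was in each case at least 2-fold above the highest of 08h, 12h A, 12h B and 16h. It held for 46 of 13647 probe sets (0.337%), of which 14 have 1 gene. NPF6.4 met it with a ratio of 2.46, which is no separate result, since the rule was set with its values known. AT3G56290 met it with 2.72, AT2G36630 with 2.54, AT3G17800 with 2.26 and AT5G15950 with 2.10. Among the 14 the ratio ran from 2.01 for AT3G57020 to 3.4 for AT3G13610. NPF6.2 did not meet it. The mirror image, low at 00h and 04h and at least 2-fold higher on the 4 other arrays, held for 47 probe sets.

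PYK10, a root marker, had 120.2 and 126.8 at 12h, against 300 and 271.8 at 00h, and passed as lower (log2 difference -1.11, limma adjusted p = 0.00182). Of 3 listed root markers 2 have a probe set, and their summed intensity was 129.3 and 133.5 at 12h, against 315.5 and 278.5 at 00h. The 04h array had a sum of 145.9, and 08h had 100.9. The other one, EXPA7 of root hairs, stayed between 6.7 and 15.5. The sum was low at 04h, where NPF6.4 was high, and the part of root material in the fall at 12h was not tested. The guard cell marker FMA, 1 of 3 listed, ran between 41.5 and 88.1, and the phloem marker SWEET11, also 1 of 3, had 826.2 and 554.7 at 12h, against 1244.3 and 722.5 at 00h, and neither passed. Markers of flowers and leaf mesophyll have no named probe set here. The ratio of 3' to 5' actin intensity was 2.69 and 2.74 at 00h, 2.55 at 04h, 2.53 at 08h, 3.11 and 3.19 at 12h, 2.29 at 16h and 2.57 at 20h. This ratio was nearly equal at 04h and 08h, highest at 12h and lowest at 16h, and its part in the course of NPF6.4 was not tested. In whole rosettes, fewer cells that express the gene and less RNA per cell cannot be told apart.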

How the data were processed

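The values are deposited intensities on a linear scale, 1 per probe set and array, made with MAS5 (no version given) per the submitters' processing notes. After trimming 2% at each end the mean, averaged over the 8 arrays, was 100. Where each array is scaled to such a mean, a change in total mRNA is removed. Between 5 and 52 of 22810 probe sets per array were at 0. No depth exists for arrays, and the number of arrays limits the precision.

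From these, log2(intensity + 16) was computed. The 64 control probe sets and the 40% of the others with the lowest mean were left out, leaving 13647. Differences on this scale understate those of dim probe sets. All 8 arrays entered a linear model with 1 mean per hour (limma 3.58.1 under R 4.3.3, eBayes with an intensity trend), and p-values were adjusted by Benjamini-Hochberg over all tested probe sets at a threshold of 0.05. Within a probe set only 00h and 12h, with 2 residual degrees of freedom, inform the spread, which was taken to hold for single-array hours too. The eBayes step also drew on the spread of all tested probe sets, which brought the degrees of freedom to 10.2. An SE or p-value of 1 gene thus does not rest on its own arrays alone. The fit was tested on simulated data.

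The platform's table gives 1 gene for 13513 probe sets, of which 13436 matched RefSeq identifiers (TAIR10.1). A listed gene entered with its brightest probe set. Named are NPF6.4, its subfamily, AT5G15950, the 10 most and 5 least correlated genes, and up to 4 called members of each list by their 12h minus 00h difference, with further genes of short counts named after their values were seen. The gene and the lists were chosen with earlier results of these data known. Alternatives were other pseudocounts, filters and scalings, no trend, blocks, and leaving out arrays.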

Additional observations from a re-analysis of the deposited data

How the results depend on the processing

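The fall of NPF6.4 from 00h to 12h lay between -2.02 and -1.36 log2 units under all 13 alternatives. It passed under each alternative that kept all 8 arrays (limma adjusted p up to 0.0132). The changes of NPF6.4 at 16h (against 12h), at 20h (against 16h) and at 00h (against 20h) passed under none of these. Its step from 20h to 00h ranged from 0.69 to 1.35 with 1 array left out. Leaving out an array of 00h or 12h also lowers the residual degrees of freedom. Calls under such fits are not like for like with the main fit. Its difference from 00h to 04h, 0.06, was -0.23 with scaling to 1 median, -0.038 with the replicate block, and -0.26 to 0.39 with 1 array left out. That from 04h to 08h lay between -2.57 and -2.08. With the replicate letter as a block the 12h minus 00h estimate is -1.69 by construction, since both hours hold an A and a B array. The same holds for a block of the 2 arrays with high hybridisation controls, which are the A arrays of these hours. Neither block could move this estimate. The labels do not say what a letter marks, and the deviations of A from B at 00h and at 12h correlated at 0.30 over probe sets.

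Of the probe sets that passed between 12h and 00h (5528), 2992 were higher and 2536 lower, while scaling to 1 median gave 2348 higher and 3205 lower and moved the median of all probe sets to -0.10. Counts of nitrate and polyamine genes that passed per step were small and moved with the setting. With the main filter they are out of 21 tested nitrate genes and 3 tested polyamine genes. Of all probe sets 27%, 1.03%, 0.0879%, 11.2%, 0.00733% and 0.139% passed in the 6 steps with the main settings. Without the filter on dim probe sets 2 genes passed at 04h (7 with it), 0 at 08h (1 with it) and 0 at 16h (4 with it), each against the hour before. With the replicate block the counts of listed genes were 11, 3, 1, 7, 1 and 1 in the 6 steps, where 7, 1, 0, 4, 0 and 0 passed without it. Calls over all probe sets moved too. Between 12h and 00h they were 6913 with the replicate block and 4385 without the filter, against 5528. Shares of all probe sets per step under the other settings are not given, so these moves are no result about the listed genes. A block of the 2 arrays with high hybridisation controls, added after seeing the data, gave 3 at 08h, another 3 at 12h and 1 at 20h. Quantile normalization gave 7 at 16h. With 1 array left out the counts were 4 to 8, 3 and 0 to 3 in the first 3 steps. By Spearman correlation 5 of the 10 most alike genes stayed among the 10. The cause of these changes was not tested.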
